A study of Mus musculus with 12 samples.

Results

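The genes described here are the expressed mouse Zfp genes, which carry the symbol Zfp followed by a number and encode zinc finger proteins. They were selected on measured signal. A probe set with a single gene symbol of that form, other than Zfp42, had to exceed 100 intensity units on at least 3 of 12 arrays, and the probe set with the highest mean stood for its gene. Of 304 Zfp symbols on the array, 272 passed and are called the members below, and 32 did not. They stand among 13908 genes that passed the same filter. Near the limit, the third-highest signal was 102.5 units for Zfp109 and 103.5 units for Zfp316, which were kept, and 99.8 units for Zfp983 and 99.4 units for Zfp420, which were not.

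The study compared mouse germ cell-like cells made in culture with male germ cells of the animal at an early and a late stage. Each of 4 groups had 3 arrays. Spermatid-like cells (SLC) were made in vitro, and the round spermatids (RS) beside them, the haploid cells that follow meiosis, came from testis of BDF1 mice at 3 weeks. Primordial germ cell-like cells (PGCLC) were taken at day 6 of differentiation in vitro, and the primordial germ cells (PGC) beside them, the embryonic precursors of sperm, came from the genital ridge of E12.5 BDF1 male fetuses. All cells had been collected by fluorescence-activated sorting with a gate that is not given in the sources used here, nor is the cell line behind PGCLC and SLC. The labels call the samples biological replicates, without saying whether they came from separate cultures or animals, so p-values measure the spread between these samples, which may be technical.

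Many Zfp proteins join an array of C2H2 zinc fingers, which read DNA sequence, to a KRAB domain. The KRAB domain recruits the co-repressor Trim28 and with it the histone H3 lysine 9 methyltransferase Setdb1, heterochromatin proteins and DNA methylation. Such proteins silence retroelements, and some protect imprinted methylation in the early embryo. Other proteins with a Zfp name lack KRAB and act in transcription, RNA decay, ribosome assembly or cell division.

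Marker genes bore on what each group held. Summed over 7 spermatid markers, signal was 108400 to 114300 units in SLC and 142800 to 152000 units in RS, against 152.0 to 292.2 units in PGCLC and 170.3 to 325.8 units in PGC, where Prm1, Tnp1, Tnp2 and Acr lay at the floor on every PGC array. The 8 mesenchymal and peritubular markers summed to 91250 to 92190 units in SLC, against 2492 to 3018 units in RS, and none lay at the floor on all arrays of a group. The 5 measured Leydig markers summed to 7677 to 8090 units in SLC against 221.6 to 331.4 units in RS, with Cyp11a1 at the floor on all RS arrays, and the 5 measured Sertoli markers to 4304 to 4607 units in SLC against 647.8 to 952.1 units in RS. Summed over 5 germ cell markers, PGCLC replicates 1, 2 and 3 had 6619, 45520 and 26280 units, against 50950 to 54760 units in PGC. Sertoli markers summed to 10300 to 11850 units in PGCLC and 10670 to 11470 units in PGC. The 2 measured erythroid markers summed to 1723, 15800 and 8552 units on PGCLC replicates 1, 2 and 3, against 12040 to 12830 units in PGC. Leydig markers summed to 156.6, 2455 and 1081 units on the same PGCLC arrays, against 832.0 to 1324 units in PGC. Over all genes, Pearson's r of PGCLC replicate 2 was 0.914 and 0.955 with the other PGCLC arrays, against 0.973 to 0.974 with those of PGC, so each PGCLC mean below averages unlike arrays. In such bulk RNA, fewer cells of a type and less RNA per cell cannot be told apart.

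At the late stage fewer Zfp genes were bright. Signal exceeded 100 units on all 3 arrays of a group for 188 members in SLC, 153 in RS, 226 in PGCLC and 223 in PGC. On each array the share of members above 100 units was 75% to 76.8% in SLC, 64.7% to 67.6% in RS, 90.1% to 91.2% in PGCLC and 87.5% to 87.9% in PGC. For all 13908 genes the shares were 87.5% to 89.2%, 76.8% to 81.9%, 77.6% to 79.0% and 73.4% to 73.7% in the same order. The median member mean was 219 units in SLC, 178 units in RS, 350 units in PGCLC and 346 units in PGC, while the median over all genes was 521, 342, 472 and 388 units. These levels took part in choosing the members and are given without a test.

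**Figure D1:**
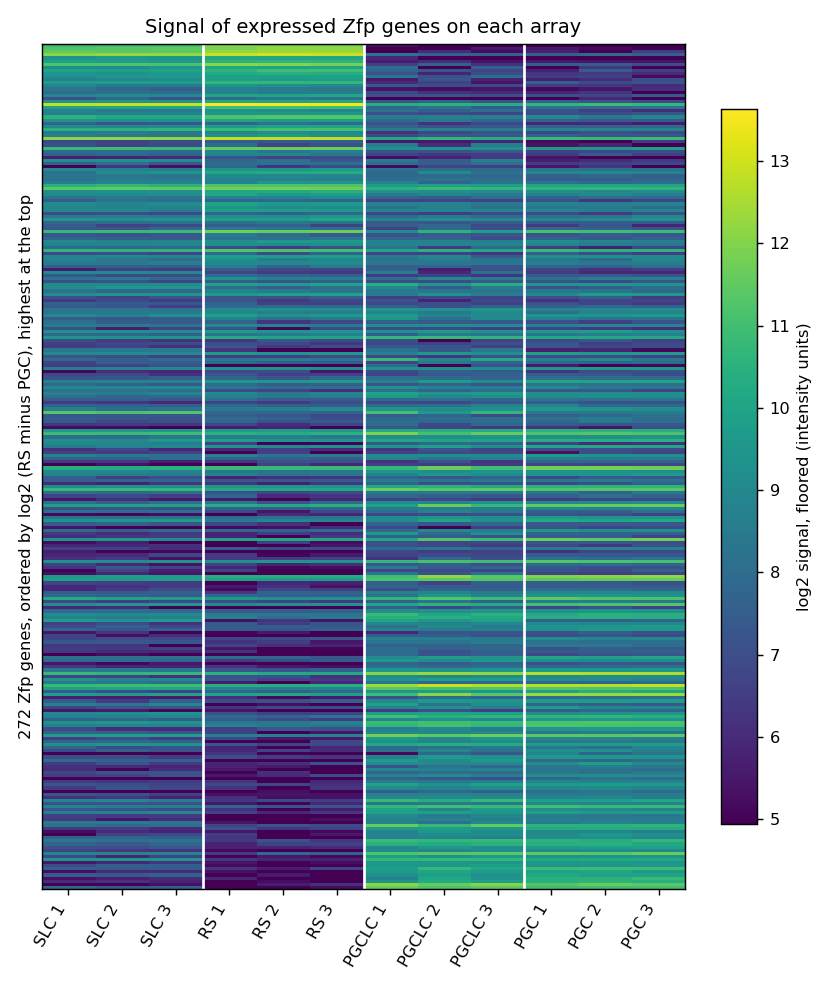
Log2 signal of all 272 Zfp genes, floored at 30.7 intensity units, on each of the 12 arrays (columns) with SLC, RS, PGCLC and PGC separated by white lines. Genes run from the highest RS minus PGC difference at the top to the lowest at the bottom, and the lower block is dark in RS and lighter in SLC.

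No single pattern of presence covered the family. On all 12 arrays, 118 members exceeded 100 units. Another 55 did so on every PGCLC and PGC array and on no RS array, and of these 28 also stayed under 100 units on every SLC array, while 17 exceeded it on all 3 SLC arrays. The reverse pattern, above 100 units on every SLC and RS array and on no PGCLC or PGC array, was found for 7 members, namely Zfp474, Zfp541, Zfp558, Zfp572, Zfp78, Zfp980 and Zfp991. For Zfp991 this held on the probe set used only. Another Zfp991 probe set gave 351.3, 411.8 and 227.1 units in PGC and 2271, 478.8 and 2075 units in PGCLC. Only Zfp316 exceeded 100 units on arrays of 1 group alone, at 138.5, 103.5 and 121.3 units in RS. Members that passed the filter through some of the groups had to differ between groups, so the counts below describe the members and do not support a claim about the family. Adjusted p-values of single such members, among them Zfp474, Zfp541, Zfp982 and Zfp703, likewise serve as descriptions.

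The members with the highest probe set signal were not the same at both stages. Zfp622, whose yeast counterpart works in maturation of the large ribosomal subunit, averaged 6600 ± 1410 units in PGCLC and 6918 ± 373.4 units in PGC (SD, n = 3 each). Zfp574, among the highest at the late stage, had 7563 ± 408.9 units in SLC and 12160 ± 508.3 units in RS, beside 1409 ± 65.7 units in PGCLC and 1720 ± 154.9 units in PGC. Zfp110, a partner of the p75 neurotrophin receptor, averaged 4525 ± 75.78 units in SLC and 7352 ± 271 units in RS. Zfp207 averaged 4590 ± 404.5 units in PGCLC and 6343 ± 193.6 units in PGC. Probe sets of different genes do not share a scale, so the values compare groups and do not rank genes.

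The stage difference in the animal was read by setting RS against PGC. In RS, 134 members fell and 51 rose relative to PGC, where a call needed an adjusted p under 0.05 in limma and a difference of at least 2-fold. The background over all genes was 38.3% lower and 31.9% higher, against 49.3% and 18.8% of the members. The median log2 difference, RS minus PGC, was -0.96 over members and -0.26 over all genes. Among the 118 members above 100 units on all arrays, 38 fell and 23 rose, both smaller shares than over all genes. The larger share of falls over the members was thus not seen in this subset, for which no matched background was computed.

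Of the genes that rose most, all but Zfp37 were, on the probe set used, at or near the floor on some PGC array. Zfp474, a gene known from mouse testis, gave 4106, 3999 and 3985 units in RS, against 19.5, 9.1 and 5.88 units in PGC. Its rise was at least 131-fold, with a log2 difference of 7.03 (SE 0.14, limma adjusted p = 4.87e-13). Zfp991, from a cluster of KRAB zinc finger genes on mouse chromosome 4, gave 3788, 4628 and 4548 units in RS, against 45.1, 35.8 and 31.5 units in PGC, and was 116-fold higher (log2 difference 6.86, SE 0.19). The other Zfp991 probe sets rose less, with log2 differences of 2.22 and 3.14. On the probe sets used, every RS array lay far above every PGC array for both genes.

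Zfp541 encodes a germ cell zinc finger protein that works with histone deacetylases and is needed in mice for spermatocytes to leave pachytene. It gave 4801, 5084 and 4994 units in RS, against 53.0, 24.5 and 89.4 units in PGC, a fitted 94.2-fold rise, with a ratio of mean signals of 89.2 (limma adjusted p = 3.65e-09). Zfp37, a KRAB zinc finger gene expressed in mouse spermatids and brain, gave 7914, 8353 and 8015 units in RS, against 191.0, 249.1 and 192.1 units in PGC, and rose 38.7-fold. A second Zfp37 probe set read the other way, with 380, 396 and 409 units in RS against 518, 531 and 553 units in PGC. Zfp980, of the same chromosome 4 cluster as Zfp991, reached 1204, 1062 and 1087 units in RS, against 6.65, 28.3 and 8.26 units in PGC, at least 36.3-fold higher.

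The promoters of a CpG-poor and a CpG-rich gene among those that rose are shown, with every CG dinucleotide in capitals. Sequences and coordinates are those of RefSeq on GRCm38.p6, 250 bases before to 50 after an annotated start, 5′ to 3′ on the strand of the gene. Zfp541 has 4 CG dinucleotides in its window and Zfp37 has 27 in the first of its 2 windows.
Zfp541 promoter, chr7:16071595-16071894, plus strand: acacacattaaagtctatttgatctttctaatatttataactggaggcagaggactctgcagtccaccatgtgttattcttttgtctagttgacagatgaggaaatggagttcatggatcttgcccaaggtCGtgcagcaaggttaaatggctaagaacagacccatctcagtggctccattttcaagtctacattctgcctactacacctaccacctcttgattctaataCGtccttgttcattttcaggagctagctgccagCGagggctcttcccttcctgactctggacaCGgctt
Zfp37 promoter, chr4:62208497-62208796, minus strand: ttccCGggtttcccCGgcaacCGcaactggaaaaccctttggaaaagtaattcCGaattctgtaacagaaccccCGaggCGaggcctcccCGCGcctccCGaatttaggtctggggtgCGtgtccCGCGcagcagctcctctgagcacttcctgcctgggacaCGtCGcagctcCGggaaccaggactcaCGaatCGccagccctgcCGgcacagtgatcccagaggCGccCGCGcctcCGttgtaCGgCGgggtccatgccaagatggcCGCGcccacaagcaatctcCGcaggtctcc

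Genes that fell most were bright in PGC and close to the floor in RS. Zfp462, a chromatin factor that restrains lineage genes in mouse embryonic stem cells, gave 28, 30.5 and 38.5 units in RS, against 1937, 1979 and 2032 units in PGC, a fall of at least 59.8-fold (log2 difference -5.90, SE 0.16, limma adjusted p = 1.17e-11). Zfp982, a KRAB zinc finger gene of the chromosome 4 cluster, gave 30.5, 48.1 and 70.1 units in RS, against 2542, 3168 and 2700 units in PGC. The fitted fold was 59.4 and the ratio of mean signals 56.5, and all 3 of its probe sets were lower in RS. The probe set used has the manufacturer's suffix for probes that may match several transcripts.

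Zfp799 was at least 42.7-fold lower, with 2.66, 37.9 and 11.4 units in RS against 1348, 1549 and 1331 units in PGC. Zfp566 gave 59.2, 25.1 and 27.6 units in RS, against 1395, 1491 and 1792 units in PGC, at least 40.5-fold lower. Zfp267 gave 26.6, 47.0 and 9.74 units in RS, against 1194, 980.1 and 994.6 units in PGC, at least 29.7-fold lower. For each of these falls the groups did not overlap on any array.

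Promoters of 2 of the members that fell most, Zfp982 with 16 CG dinucleotides in the first of its 3 windows and Zfp141 with 13, are given in the same form. The Zfp982 windows not shown have 5 and 2 CG dinucleotides.
Zfp982 promoter, chr4:147442864-147443163, plus strand: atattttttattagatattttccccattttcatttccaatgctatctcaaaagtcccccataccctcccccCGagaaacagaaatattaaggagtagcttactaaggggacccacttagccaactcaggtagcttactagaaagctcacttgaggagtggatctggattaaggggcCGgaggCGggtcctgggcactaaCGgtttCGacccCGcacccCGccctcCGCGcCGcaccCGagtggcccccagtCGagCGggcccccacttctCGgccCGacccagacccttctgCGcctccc
Zfp141 promoter, chr7:42505704-42506003, minus strand: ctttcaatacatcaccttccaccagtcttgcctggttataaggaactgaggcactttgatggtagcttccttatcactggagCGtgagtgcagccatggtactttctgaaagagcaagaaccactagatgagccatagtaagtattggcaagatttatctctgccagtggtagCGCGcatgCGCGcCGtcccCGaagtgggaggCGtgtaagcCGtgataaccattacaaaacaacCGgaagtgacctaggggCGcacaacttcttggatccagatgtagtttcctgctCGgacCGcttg

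Promoter windows were found for 222 of the 272 members, 277 windows in all. The median number of CG dinucleotides in a window was 16 for members and 7 over all 32851 windows of the table, and the median GC content was 56.0% and 52.7%. Windows of members higher at the late stage in both the animal and culture had a median of 17 CG dinucleotides, and those of members lower in both had 14. Motifs of 4 kinds were searched on both strands. The cyclic AMP response element TGACGTCA was in 3.61% of member windows and 1.79% of all windows, and its core TGACG, which is part of the longer motif, in 33.2% and 20.8%. Of the 35 windows of 25 members higher at the late stage in both comparisons, 0 held TGACGTCA. Of the 101 windows of 87 members lower in both, 6 held it, or 5.94%. Windows of 1 gene can overlap and were counted separately, and several of those 6 belong to Zfp473. No difference between the sets is read from these values. The MYB motif AACNGTT was in 5.42% of member windows and 4.45% of all windows, and the E2F motif TTCCCGC in 7.58% and 4.60%. These are letter matches in windows of unequal base composition.

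**Figure D2:**
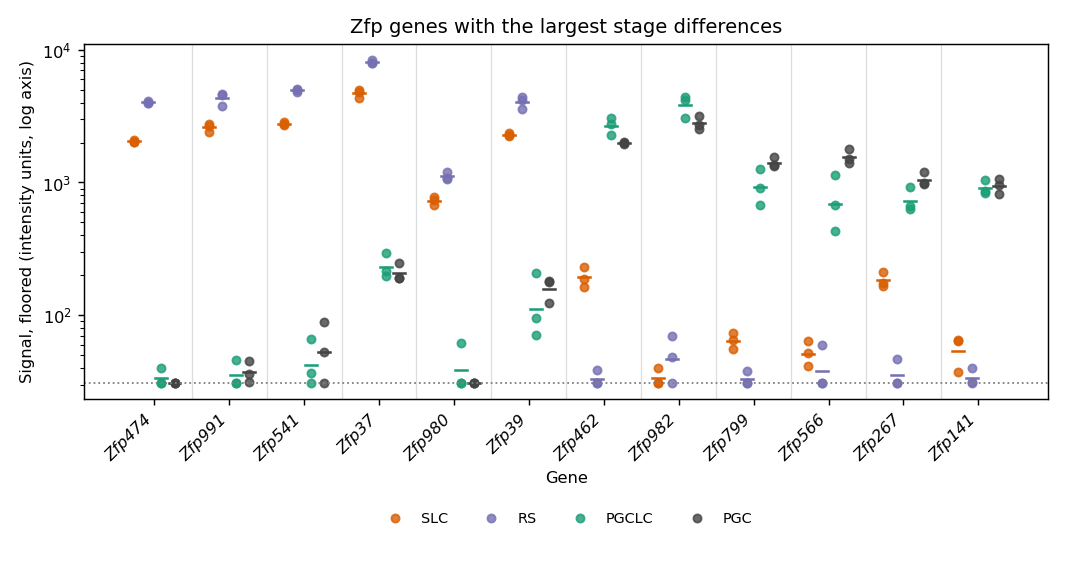
Signal on each array (log axis, intensity units) of 12 Zfp genes with the largest stage differences, as points for SLC, RS, PGCLC and PGC with a bar at the mean of log2 values. Values under the dotted line at 30.7 units were set to it. The first 6 genes are high in SLC and RS, and the other 6 are high in PGCLC and PGC.

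The same stages in culture were read by setting SLC against PGCLC. In SLC, 115 members fell and 38 rose, 42.3% and 14.0% of the members. The background over all genes was 27.6% lower and 30.2% higher. Without PGCLC replicate 2, 113 fell and 35 rose, and over all 13908 genes 3897 and 4116. The median log2 difference, SLC minus PGCLC, was -0.77 over members and -0.07 over all genes. Among the 118 members above 100 units on all arrays, 34 fell and 15 rose. Their share of falls was close to that of all genes, and their share of rises was smaller. No matched background was computed for them.

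Of the genes named above, Zfp991 gave 2415, 2670 and 2755 units in SLC, against 12.4, 29.9 and 46.1 units in PGCLC, and was at least 74.2-fold higher. Another Zfp991 probe set, with 928.8, 604.8 and 677.6 units in SLC, was at 2491, 559.1 and 1970 units in PGCLC, so its probe sets disagreed here. Zfp541 was at least 65.8-fold higher, with 2845, 2725 and 2757 units in SLC against 19.2, 66.6 and 36.7 units in PGCLC. Zfp474 gave 2035, 2028 and 2090 units in SLC, against 40.1, 3.67 and 30.8 units in PGCLC, at least 61.0-fold higher. Zfp39, described from mouse testis, rose 20.5-fold (log2 difference 4.36, SE 0.31, limma adjusted p = 1.03e-07), with 2284, 2373 and 2242 units in SLC against 95.5, 207.9 and 71.0 units in PGCLC. Zfp37 rose 20.3-fold, with 4328, 4938 and 4816 units in SLC against 293.5, 196.5 and 213.8 units in PGCLC. No SLC array overlapped a PGCLC array for these 5 genes.

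The largest fall was that of Zfp982, with 23.6, 26.6 and 39.7 units in SLC against 4414, 3054 and 4166 units in PGCLC, at least 114-fold lower (limma adjusted p = 3.85e-10). Zfp141 gave 37.6, 63.5 and 64.6 units in SLC, against 831.2, 1049 and 860.0 units in PGCLC, and was 16.9-fold lower. In the animal it was at least 27.9-fold lower in RS than in PGC. Zfp799, Zfp462 and Zfp566 were 14.3-fold, 13.9-fold and 13.4-fold lower in SLC than in PGCLC. Zfp462 stayed above the floor in SLC, at 232.8, 164.3 and 186.8 units, against 3043, 2296 and 2769 units in PGCLC.

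The stage difference in culture ran along that of the animal. Of the members, 34 rose in both comparisons and 105 fell in both, and 0 were called in opposite directions. Of the 13908 genes, 3489 rose in both and 3354 fell in both, 17 rose in RS and fell in SLC, and 197 fell in RS and rose in SLC. The 2 comparisons share no array. The log2 differences of the 272 members, which cannot be counted as independent observations, had a Pearson's r of 0.92 and a Spearman's rho of 0.88, with 89.7% of the same sign and a slope of culture on animal of 0.68. Across all genes r was 0.88, with 84.9% of the same sign and a slope of 0.71. Another 29 members fell in RS without a call in SLC, 17 rose in RS without one, 10 fell and 4 rose in SLC alone, and 73 were called in neither.

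**Figure D3:**
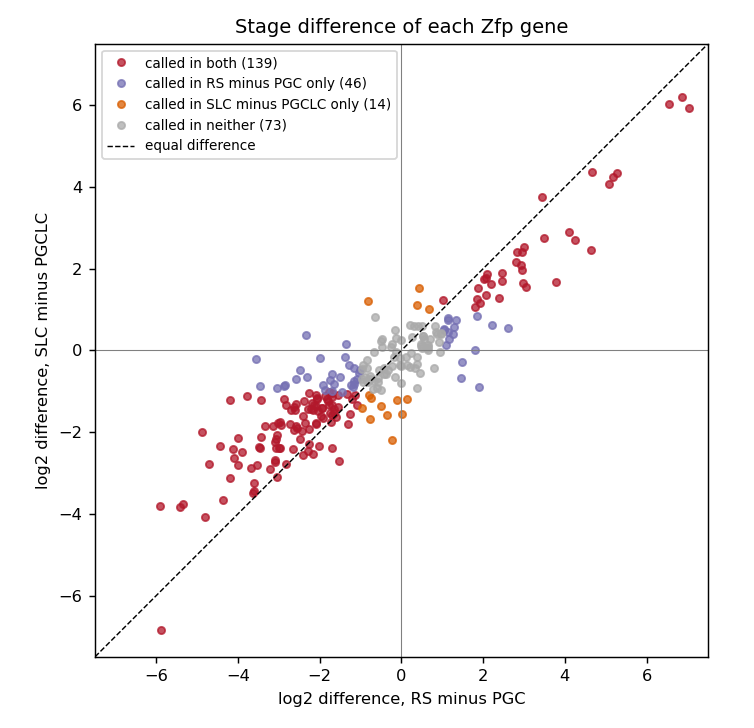
Each point is 1 of the 272 Zfp genes, with its log2 difference RS minus PGC on the x axis and SLC minus PGCLC on the y axis. Colours show where the gene was called, and the dashed line marks equal differences. Pearson's r over the points is 0.92, and no gene was called in opposite directions.

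Members of the early-stage and late-stage sets were read side by side across the groups. The 34 members higher in both comparisons had medians of 709 units in SLC, 1090 units in RS, 129 units in PGCLC and 117 units in PGC. Their SLC to RS ratio of mean signals had a median of 0.596, with quartiles of 0.555 and 0.643, and SLC exceeded RS in 2 of 34. The 105 members lower in both had medians of 117 units in SLC, 76.0 units in RS, 533 units in PGCLC and 562 units in PGC, and SLC exceeded RS in 78. The sets were drawn with the same SLC and RS arrays, so these ratios are a description.

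How far the late cells made in culture differed from those of the testis was read by setting SLC against RS. Relative to RS, 53 members rose and 4 fell in SLC, 19.5% and 1.47% of the members, beside a background of 24.2% and 3.39% over all genes. That split depended on scaling. With each array centred on its median, 29 members rose and 99 fell, and with quantile normalization 36 rose and 58 fell. Over all 13908 genes the counts were 2426 and 5473 with the first scaling, and 2725 and 2360 with the second. The genes named next as higher in SLC kept their call under both.

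Zfp503, a transcriptional repressor of limb and striatal development, gave 900.6, 687.1 and 892.8 units in SLC, against 40.2, 76.1 and 43.7 units in RS. It rose 16.1-fold (log2 difference 4.0, SE 0.24, limma adjusted p = 7.21e-08). Zfp931 gave 428.5, 314.4 and 495.1 units in SLC, against 22.6, 39.4 and 23.7 units in RS, at least 12.1-fold higher. Zfp266, reported as a barrier to reprogramming of mouse cells, gave 723.4, 760.9 and 696.3 units in SLC, against 80.6, 58.1 and 53.7 units in RS, and rose 11.5-fold. The groups did not overlap for any of them.

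Zfp36 is an immediate early gene whose product, tristetraprolin, directs decay of cytokine mRNAs. It gave 2571, 2392 and 2500 units in SLC, against 227.2, 239.5 and 215.9 units in RS, and rose 10.9-fold (limma adjusted p = 8.17e-07). Zfp9 gave 503.3, 487.0 and 415.2 units in SLC, against 95.9, 18.0 and 32.4 units in RS, with a fitted fold of 10.2 and a ratio of mean signals of 9.61. Zfp703, the paralog of Zfp503, was at least 8.65-fold higher, at 355.1, 367.5 and 360.5 units in SLC against 77.0, 10.7 and 14.6 units in RS.

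Markers of some other cells were also higher in SLC than in RS. All 8 mesenchymal and peritubular markers rose in SLC, as did 4 of 5 measured Leydig and 4 of 5 measured Sertoli markers. Only 1 of 4 macrophage and 1 of 3 measured endothelial markers rose, and over all genes 24.2% did. The 6 immediate early and stress genes, all of which rose, summed to 43140 to 44150 units in SLC, against 1471 to 1741 units in RS, with Atf3 at the floor on all RS arrays. The part of these markers in the Zfp differences was not tested.

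The 4 members that fell in SLC were of low or moderate signal. Zfp438 gave 298.6, 588.4 and 687.6 units in SLC, against 1132, 1219 and 1278 units in RS, and fell 2.44-fold. Zfp316 gave 51.1, 56.0 and 63.9 units in SLC, against 138.5, 103.5 and 121.3 units in RS, 2.12-fold lower in SLC, but it had passed the filter through its RS arrays alone, so this call is a description. Zfp296, a partner of pluripotency factors in mouse embryonic stem cells, gave 177.0, 155.7 and 175.6 units in SLC, against 436.6, 281.4 and 337.0 units in RS, and fell 2.05-fold. Zfp526 gave 6.05, 75.5 and 38.5 units in SLC, against 230.5, 76.4 and 124.0 units in RS, at least 2.90-fold lower, with limma adjusted p = 0.0291. Each of these 4 calls was lost when some single array was left out, and the highest SLC and lowest RS value of Zfp526 nearly met.

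**Figure D4:**
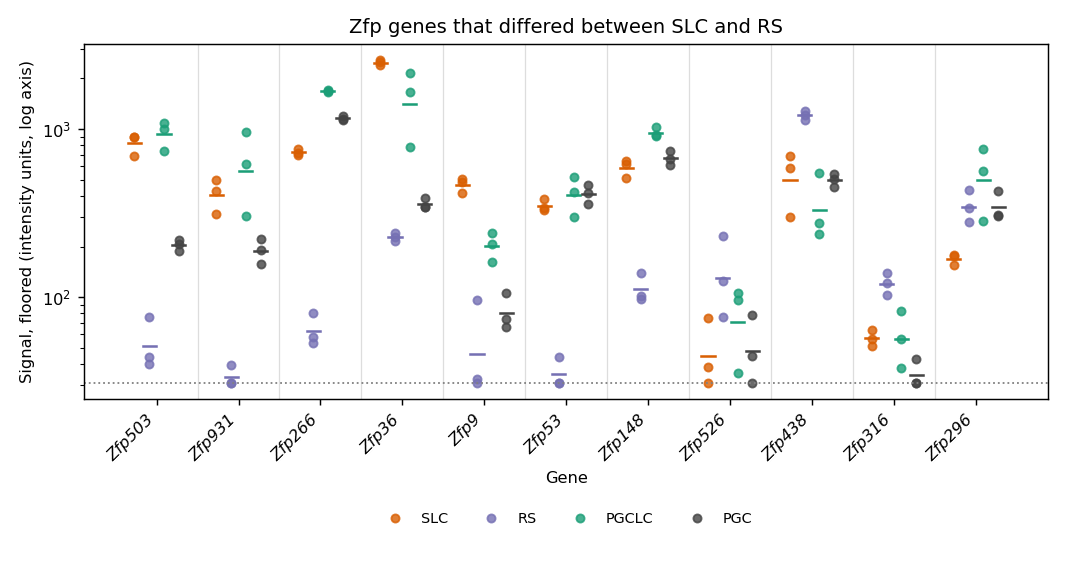
Signal on each array (log axis, intensity units) of Zfp genes that differed between SLC and RS, as points for SLC, RS, PGCLC and PGC with a bar at the mean of log2 values and a dotted line at the floor of 30.7 units. Zfp503 to Zfp148 are higher in SLC than in RS on every array, and Zfp526 to Zfp296 are lower.

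The early cells made in culture were set against those of the fetus. Relative to PGC, 14 members rose and 5 fell in PGCLC, 5.15% and 1.84% of the members, beside a background of 10.4% and 1.65% over all genes. Centred on the array medians the counts were 13 and 18, and after quantile normalization 10 and 12. Over all 13908 genes they were 1065 and 637, and 1042 and 385, in the same order. The median log2 difference was -0.06 over members and 0.002 over all genes.

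The PGCLC arrays differed from each other. At least 2-fold from the PGC mean were 58 members on replicate 1, 11 on replicate 2 and 34 on replicate 3. Of all genes, 27.3%, 7.33% and 17.3% were that far from PGC on the same arrays. Without PGCLC replicate 2, 22 members rose and 16 fell, and over all 13908 genes 2100 and 753. Replicate 2 was the PGCLC array nearest to PGC for 13 of the 14 members that rose and for all 5 that fell. Fitted on the 6 PGCLC and PGC arrays alone, limma called 3 members higher, Zfp503, Zfp703 and Zfp948, and 0 lower. At an unadjusted p under 0.05 in the fit of all 12 arrays, 43 members were higher and 54 lower. The share of all genes at that limit is not given here, so nothing about the members is read from these counts.

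The largest rise was that of Zfp703, a transcriptional repressor of the same family as Zfp503. It gave 316.6, 158.1 and 336.7 units in PGCLC, against 51.0, 58.5 and 34.6 units in PGC, and rose 5.47-fold (log2 difference 2.45, SE 0.39, limma adjusted p = 0.00227). Zfp423, a factor of adipose and cerebellar development, gave 390.7, 179.6 and 404.7 units in PGCLC, against 52.2, 65.5 and 83.0 units in PGC, and rose 4.64-fold. Zfp503 gave 1094, 741.2 and 997.8 units in PGCLC, against 207.6, 188.5 and 218.9 units in PGC, and rose 4.55-fold. All PGCLC arrays lay above all PGC arrays for each.

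Zfp36 rose 3.94-fold, with 2157, 780.2 and 1665 units in PGCLC against 345.6, 342.2 and 386.6 units in PGC. Zfp57, which protects imprinted methylation, gave 396.8, 67.6 and 398.5 units in PGCLC, against 42.5, 58.2 and 4.61 units in PGC, at least 5.20-fold higher, with limma adjusted p = 0.015. Its level on replicate 2 lay close to PGC, and the call was lost without PGCLC replicate 1 or 3 or PGC replicate 3. Beside these rises, 5 of 8 mesenchymal and peritubular markers rose, to a sum of 15850 to 16570 units in PGCLC against 5562 to 6481 units in PGC. Of 4 macrophage markers 3 rose, to sums of 1931, 539.0 and 1391 units on PGCLC replicates 1, 2 and 3 against 227.3 to 253.0 units in PGC, and 2 of 5 germ cell markers fell. All 6 immediate early and stress genes rose, to 21320 to 32450 units in PGCLC against 6260 to 7813 units in PGC, and the part of these markers in the Zfp rises was not tested.

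The falls were small. Zfp248 gave 73.7, 138.7 and 75.4 units in PGCLC, against 218.9, 226.3 and 210.7 units in PGC, and fell 2.38-fold. Zfp105, a gene of mouse spermatogenesis, gave 536.9, 1512 and 869.7 units in PGCLC, against 2180, 2020 and 1908 units in PGC, and fell 2.28-fold (limma adjusted p = 0.0096). Zfp597 fell 2.29-fold, Zfp3 2.26-fold and Zfp566 2.25-fold. Each of the 5 calls was lost without PGCLC replicate 1 or without PGCLC replicate 3.

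**Figure D5:**
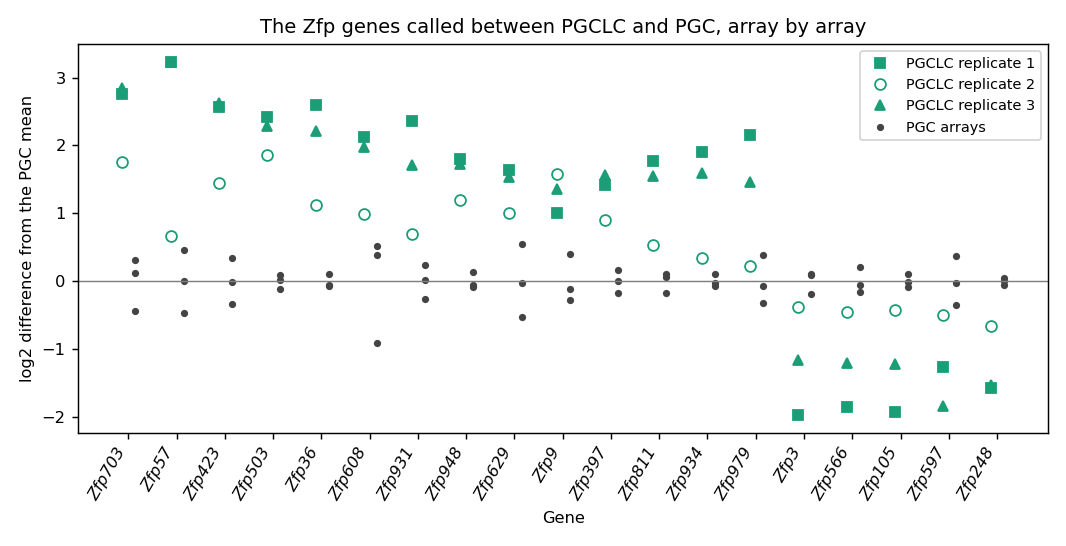
Log2 difference from the PGC mean (y axis) of each PGCLC array and each PGC array for the 19 Zfp genes (x axis) called between PGCLC and PGC. PGCLC replicate 2, drawn as open circles, lies nearest to PGC for 13 of 14 genes that rose and for all 5 that fell.

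Some members were higher in both kinds of cultured cell. Zfp36, Zfp423, Zfp503, Zfp703, Zfp9, Zfp931 and Zfp948, 7 members in all, rose in PGCLC against PGC and in SLC against RS, comparisons that share no array. They are 7 of the 14 members that rose in PGCLC and 7 of the 53 that rose in SLC. Of all genes, 756 rose in both, out of 1446 that rose in PGCLC and 3372 that rose in SLC, and nothing particular to Zfp genes is read from the overlap. Across the 272 members, Pearson's r between both log2 differences was 0.39, and across all genes 0.34.

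Whether the stage difference was the same in culture and animal was tested as an interaction. The difference SLC minus PGCLC less RS minus PGC was called above 0 for 43 members and below 0 for 20, 15.8% and 7.35%, beside a background of 21.5% and 11.2%. Centred on the array medians the counts were 30 and 45, and after quantile normalization 30 and 29, while without PGCLC replicate 2 they were 44 and 26. Over all 13908 genes they were 2276 and 3518, 2363 and 1956, and 3224 and 2003 in the same order. Zfp53 had the largest positive difference, 3.35 on the log2 scale (SE 0.32, limma adjusted p = 8.08e-06). It gave 337.5, 381.2 and 329.4 units in SLC and 422.5, 299.8 and 518.4 units in PGCLC, while RS had 44.1, 24.9 and 22.6 units and PGC 355.9, 463.3 and 414.8 units. It was lower in RS than in every other group, and SLC overlapped PGCLC and PGC.

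Zfp266 and Zfp267 followed, with differences of 2.98 (SE 0.20) and 2.89 (SE 0.30). Zfp266 averaged 726.9 ± 32.42 units in SLC, 64.13 ± 14.42 units in RS, 1687 ± 19.96 units in PGCLC and 1159 ± 35.44 units in PGC (SD, n = 3 each). Zfp267 averaged 183.7 ± 23.34, 27.79 ± 18.67, 740.2 ± 156.8 and 1056 ± 119.3 units in the same order. The lowest differences were those of Zfp57 at -2.81 (SE 0.86), Zfp526 at -2.13 (SE 0.78) and Zfp608 at -2.11 (SE 0.52). Zfp608 averaged 724.8 ± 74.29 units in SLC, 960.4 ± 40.87 units in RS, 238.3 ± 88.11 units in PGCLC and 75.95 ± 34.1 units in PGC.

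Of the imprint and retroelement repressors, all 7 listed genes were measured. Relative to PGC, 3 fell and 1 rose in RS, and relative to PGCLC, 2 fell and 1 rose in SLC. The background over all genes was 38.3% lower and 31.9% higher in RS, and 27.6% lower and 30.2% higher in SLC. Nothing particular to the list is read from its counts. Zfp568, which represses the placental promoter of Igf2, gave 107.4, 151.1 and 116.7 units in RS against 1529, 1458 and 1540 units in PGC, a 12.2-fold fall. In SLC it gave 289.5, 232.0 and 276.2 units, against 3091, 1747 and 2903 units in PGCLC, a 9.45-fold fall. Zfp932, a repressor of endogenous retroviruses, gave 32.5, 45.9 and 34.9 units in RS against 669.1, 678.4 and 700.2 units in PGC, an 18.3-fold fall, and fell 8.71-fold in SLC. Neither gene had overlapping arrays between stages.

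Zfp445, the second known imprint protector of this family in mice, fell 2.25-fold in RS, with 1163, 1146 and 1105 units against 2417, 2624 and 2639 units in PGC. In SLC it averaged 1719 ± 50.26 units, against 2894 ± 330.1 units in PGCLC, a 1.68-fold difference under the 2-fold limit. Zfp809, which recognises the proline primer binding site of murine leukaemia virus, rose 2.82-fold in SLC against RS, with 600.2, 772.9 and 713.9 units in SLC and 267.4, 191.6 and 289.5 units in RS. It also rose 2.17-fold in SLC against PGCLC, at 509.5, 172.9 and 368.5 units in PGCLC, with limma adjusted p = 0.0145. Zfp57 was above 100 units on all RS arrays, at 274.0, 109.3 and 135.6 units, and at least 3.77-fold higher there than in PGC, a call lost without RS replicate 1.

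Zfp708, a repressor of RMER19B elements, and Zfp819 were called in none of the stage or culture comparisons. Zfp819, expressed in mouse germ and stem cells, averaged 490.7 ± 22.95 units in SLC, 878.1 ± 6.854 units in RS, 354.5 ± 162.9 units in PGCLC and 617.1 ± 59.06 units in PGC. Zfp708 averaged 119.2 ± 13.81, 189.0 ± 56.72, 94.55 ± 15.32 and 133.3 ± 48.43 units in the same order.

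The co-repressor pathway on which KRAB proteins act was measured through 16 genes. Relative to PGC, 7 fell and 3 rose in RS, and relative to PGCLC, 9 fell and 2 rose in SLC. Over all genes 38.3% were lower and 31.9% higher in RS, and 27.6% lower and 30.2% higher in SLC, and nothing particular to the pathway is read from its counts. Trim28, the co-repressor that KRAB domains bind, averaged 5543 ± 549.3 units in SLC, 7496 ± 187.9 units in RS, 11830 ± 1253 units in PGCLC and 13310 ± 666.3 units in PGC. It fell 2.13-fold in SLC against PGCLC, and its 1.77-fold difference in RS was under the 2-fold limit. Setdb1, the histone methyltransferase that Trim28 recruits, fell 2.57-fold in RS, to 787.5 ± 24.99 units against 2024 ± 21.52 units in PGC, and 2.31-fold in SLC.

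The largest fall in RS was that of the chromatin remodeller gene Smarcad1, 12.9-fold, to 293.6 ± 107.8 units against 3649 ± 99.62 units in PGC, and it fell 6.63-fold in SLC against PGCLC. Cbx1, a heterochromatin protein of the HP1 family, gave 483.9, 485.5 and 397.5 units in RS, against 5694, 6191 and 5361 units in PGC, and fell 12.6-fold. In SLC it gave 980.4, 870.9 and 975.1 units, 2.07-fold above RS and 5.95-fold below PGCLC. Dnmt1, the maintenance DNA methyltransferase, averaged 743.1 ± 55.86 units in SLC, 742.9 ± 33.11 units in RS, 5770 ± 1183 units in PGCLC and 7034 ± 160.8 units in PGC. Of the genes that rose in RS, Trim24 rose 3.03-fold, the HUSH complex gene Pphln1 8.72-fold and Chd3 2.72-fold, while the HUSH genes Mphosph8 and Tasor fell 4.90-fold and 5.95-fold. Uhrf1, which guides Dnmt1, was among the pairwise comparisons called only as lower in SLC against PGCLC, and Cbx3 was called in none. Between PGCLC and PGC, limma called 0 of the 16 genes.

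Of 7 listed Zfp genes known from the testis, 4 rose and 1 fell in RS against PGC, and 5 rose and 1 fell in SLC against PGCLC, beside 31.9% of all genes higher in RS and 30.2% higher in SLC. The list was drawn up with earlier results of these data known and supports no statement on such genes as a group. Zfp39 rose 25.5-fold in RS, with 4373, 4190 and 3579 units against 181.9, 176.4 and 123.3 units in PGC. Zfp35 averaged 1841 ± 101 units in SLC, 3094 ± 86.62 units in RS, 643.5 ± 50.53 units in PGCLC and 852.2 ± 106.1 units in PGC, and rose 3.65-fold in RS and 2.86-fold in SLC. Zfp59 fell 2.57-fold in SLC against PGCLC, to 247.3 ± 33 units against 644.5 ± 159.1 units.

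For Zfp318, an androgen receptor coregulator first found in mouse testis, the probe sets disagreed. The brightest gave 1303, 1176 and 1429 units in RS, against 3004, 3033 and 3173 units in PGC, and fell 2.36-fold. Another gave 3306, 3770 and 3074 units in RS, against 163.3, 193.7 and 210.9 units in PGC. Of its 5 probe sets 2 were lower and the others higher in RS, and the mean over probe sets was 1.49 higher in RS on the log2 scale, so no single direction holds for the gene. Zfp597 had the same kind of split. The probe set used gave 1648, 1617 and 1667 units in RS against 193.8, 118.4 and 148.5 units in PGC, while another gave 467.3, 421.0 and 422.9 units in RS against 1117, 1032 and 1091 units in PGC. Of 69 members called between RS and PGC that had several probe sets above the filter, 60 had all of them on the same side.

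In the list of pluripotency and broad transcription genes, 7 of 8 were measured. In RS 5 fell and 0 rose against PGC, and in SLC 5 fell and 0 rose against PGCLC. Over all genes 38.3% were lower and 31.9% higher in RS, and 27.6% lower and 30.2% higher in SLC. This list too was drawn up with earlier results known and supports no statement on such genes as a group. Zfp281, a GC-box factor of the pluripotency network, averaged 1025 ± 71.35 units in SLC, 460.0 ± 22.71 units in RS, 2443 ± 230.8 units in PGCLC and 2398 ± 122.7 units in PGC, and fell 5.21-fold in RS and 2.38-fold in SLC. Its paralog Zfp148 fell 6.04-fold in RS, with 138.8, 101.1 and 98.1 units against 614.4, 666.9 and 740.2 units in PGC. In SLC, Zfp148 gave 511.8, 616.2 and 649.3 units, against 907.2, 1026 and 919.4 units in PGCLC, a 1.61-fold difference under the 2-fold limit. Zfp410, an activator of the remodeller gene Chd4, fell 6.16-fold in RS and 2.62-fold in SLC.

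Zfp217, amplified in human tumours, averaged 856.6 ± 77.15 units in SLC, 1308 ± 16.45 units in RS, 3070 ± 1341 units in PGCLC and 4314 ± 314.5 units in PGC, and fell 3.29-fold in RS and 3.38-fold in SLC. Zfp296 fell 2.92-fold in SLC against PGCLC and averaged 351.7 ± 78.62 units in RS, against 346.3 ± 71.7 units in PGC. Zfp644, a partner of the methyltransferase G9a, averaged 1352 ± 89.47 units in SLC, 1802 ± 27.23 units in RS, 2299 ± 827.2 units in PGCLC and 3510 ± 89.43 units in PGC. On this probe set it was called in no comparison. Another Zfp644 probe set had log2 differences of -2.59, RS minus PGC, and -2.04, SLC minus PGCLC, and the rest had -0.59 to -0.74 in RS. Markers of pluripotency summed to 207.9 to 368.1 units in SLC and 349.3 to 431.5 units in RS, against 20010 to 28320 units in PGCLC and 20950 to 22150 units in PGC.

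In the list of lineage genes, 7 of 10 were measured. In RS 4 fell and 1 rose against PGC, and 3 rose and 0 fell in SLC against RS. Over all genes 38.3% were lower and 31.9% higher in RS against PGC. In SLC against RS, 24.2% of all genes were higher and 3.39% lower. No statement on the list as a group is made from its counts. Zfp423 was the gene that rose in RS, 3.48-fold, with 234.8, 298.0 and 170.9 units against 52.2, 65.5 and 83.0 units in PGC, and it reached 618.6, 659.2 and 617.2 units in SLC. Its paralog Zfp521 fell, with 45.1, 30.1 and 35.0 units in RS against 504.4, 463.6 and 400.1 units in PGC, a log2 difference of -3.64 with a ratio of mean signals of 12.4. Zfp516, a factor of brown fat, fell 3.89-fold in RS and 3.03-fold in SLC, and Zfp750, a regulator of epidermal differentiation, fell at least 7.74-fold in RS and at least 3.54-fold in SLC. Zfp467 averaged 82.67 ± 28.76 units in SLC, 72.86 ± 18.27 units in RS, 111.3 ± 35.98 units in PGCLC and 127.9 ± 4.12 units in PGC. On this probe set it was called in no comparison, while its others gave log2 differences, RS minus PGC, of -2.0 and -2.29.

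All 11 listed genes of RNA handling, translation and cell division were measured. In RS 6 fell and 1 rose against PGC, and in SLC the counts against PGCLC were 6 and 0. The shares over all genes were 38.3% lower and 31.9% higher in RS, and 27.6% and 30.2% in SLC. No statement on the list as a group is made from its counts. Zfp207, which carries Bub3 to kinetochores, gave 1478, 1212 and 1234 units in RS, against 6503, 6400 and 6128 units in PGC, and fell 4.87-fold in RS and 2.69-fold in SLC. Zfp326, of a complex that couples transcription to splicing, fell 11.0-fold in RS, with 215.2, 143.2 and 151.3 units against 2007, 1762 and 1734 units in PGC. In SLC it gave 437.2, 390.4 and 404.5 units and fell 4.36-fold against PGCLC. Zfp622 fell 5.16-fold in RS and 3.44-fold in SLC, and the SUMO ligase gene Zfp451 5.32-fold and 3.04-fold. A dimmer Zfp451 probe set rose, with log2 differences of 1.81 in RS and 0.98 in SLC, while the others of this gene fell in both.

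Zfp473, which takes part in histone mRNA processing, fell 4.84-fold in RS, to 116.7 ± 37.85 units against 542.3 ± 32.74 units in PGC, and 5.53-fold in SLC. Zfp106, an RNA-binding protein, fell 6.60-fold in RS and 3.45-fold in SLC. In SLC against RS its brightest probe set was 2.23-fold higher, 1 of 4 probe sets on that side, and the mean over probe sets was -0.004 on the log2 scale. Zfp830 rose 2.19-fold in RS, to 2334 ± 12.62 units against 1066 ± 8.206 units in PGC. Zfp598, a ubiquitin ligase at collided ribosomes, Zfp346, which binds double-stranded RNA, and Zfp593 were called in none of the pairwise comparisons. On another Zfp593 probe set the log2 differences were -1.2, RS minus PGC, and -1.27, SLC minus PGCLC. Zfp598 averaged 781.5 ± 18.49 units in SLC, 841.1 ± 60.21 units in RS, 1262 ± 81.42 units in PGCLC and 1435 ± 71.44 units in PGC.

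Genome position was compared next. RefSeq held 271 members, on 20 chromosomes, and 137 of them lay next to another Zfp gene. Zfp genes lie in clusters of related copies, and an array probe set may not separate near-identical ones. In RS against PGC, 69 of these 137 fell and 25 rose, with a median log2 difference of -1.02, and of the 134 without such a neighbour 65 fell and 25 rose, with a median of -0.92. Among 69 neighbouring pairs of members, both fell in RS in 24, both rose in 3, and 1 rose while the other fell in 7. Over all members 49.3% fell and 18.8% rose in RS, and over all genes 38.3% and 31.9%. Pairs of other genes were not counted, so nothing particular to neighbours is read from these counts.

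By chromosome, the 71 members of chromosome 7 included 32 that fell and 16 that rose in RS, with a median of -0.68. Of the 36 on chromosome 17, 23 fell and 4 rose, with a median of -1.81, and of the 11 on chromosome 2, 9 fell and 0 rose, with a median of -2.09. Chromosomes 9 and 13 differed from these. Of the 13 members on chromosome 9, 4 fell and 5 rose, with a median of 0.37. Of the 20 on chromosome 13, 7 fell and 3 rose, with a median of -0.07. Shares over all genes of an autosome are not given here, so nothing particular to an autosome is read from the counts. On the X chromosome, which is largely silenced in meiosis, 3 of the 5 members fell and 2 rose. Zfp185 and Zfp711 rose by 4.63 and 2.39 on the log2 scale, and Zfp182, Zfp275 and Zfp449 fell by 2.26, 2.85 and 3.79. Of 467 X-linked genes tested, 273 fell and 89 rose in RS, with a median of -1.57.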

How the data were processed

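Linear intensity, 1 value per probe set and array, was deposited for 12 arrays and made with MAS5 per the submitters' processing notes, whose version is not given in the sources used here. Detection calls and scan dates were not used. The 2% trimmed mean was 500.0 on every array, so the arrays had been scaled alike. Control probe sets (64), those with several symbols (932) and those with none (9160) were left out. Values under the 25th percentile of the table, 30.7 units, were set to it before log2. Genes with a probe set above 100 units on at least 3 arrays were kept, 24268 probe sets of 13908 genes, with the brightest probe set for each gene. The fit was tested on simulated data.

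All 12 arrays entered 1 fit with 4 group means in limma 3.58.1 (R 4.3.3; lmFit, and eBayes with an intensity trend), with Benjamini-Hochberg adjustment over the 13908 genes. Calls needed an adjusted p under 0.05 and a 2-fold difference. Folds come from mean log2 values, and are written as at least if the dimmer group had a floored array and its ratio of mean signals reached the fitted fold. Each gene shares 1 variance over the groups, so the spread of the PGCLC arrays enters every test. The number of arrays limits the precision.

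The genes named were the 5 largest called rises and falls without overlap in each pairwise comparison, the 3 largest of each sign for the difference of stage differences, the 5 brightest in each group, and the role lists, of which Zfp143, Zfp366, Zfp488 and Zfp536 were not measured. Members named only by presence on arrays, by calls in both cultures or by X linkage were named after their values were seen. Members and lists were chosen with earlier results of these data known. Replicate numbers did not pair arrays between groups, with correlations of deviations from group means of -0.023 to 0.135. Alternatives changed the floor, the scaling, the filter, the probe set rule, the arrays in the fit, array weights and the fold limit, and left out each array in turn. Promoters came from RefSeq, GRCm38.p6.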

Additional observations from a re-analysis of the deposited data

Results flagged for a closer look

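The stage difference of 22 named members differed between culture and animal by limma's test of SLC minus PGCLC less RS minus PGC. Over all genes 21.5% were called above 0 and 11.2% below 0. Named members were chosen in part by the size of this difference, so nothing is read from their count. On the log2 scale it was 3.35 for Zfp53, 2.98 for Zfp266, 2.89 for Zfp267, 2.10 for Zfp462, 2.04 for Zfp9, 2.01 for Zfp931 and 1.91 for Zfp148. It was 1.82 for Zfp503, 1.60 for Zfp566, 1.58 for Zfp799, 1.47 for Zfp36, 1.33 for Zfp326, 1.23 for Zfp410, 1.13 for Zfp281 and 1.07 for Zfp932. Most of these genes were lower in RS than in SLC. Below 0 were Zfp57 at -2.81, Zfp526 at -2.13, Zfp608 at -2.11, Zfp316, which had passed the filter through its RS arrays alone, at -1.79, Zfp296 at -1.57, Zfp593 at -1.30 and Zfp474 at -1.10. Of the 22 calls, 10 were lost under at least 1 alternative, among them Zfp281, Zfp326 and Zfp410 under both other scalings and Zfp526 and Zfp932 when single arrays were left out.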

How the results depend on the processing

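Of 141 calls of named genes, 94 held under every alternative, and of 3503 alternative values 143 lost the call and 2 changed sign. Those 2 came from averaging a gene's probe sets, with -0.004 for Zfp106 in SLC against RS and 1.49 for Zfp318 in RS against PGC, where the probe sets disagree. Centring each array on its median put the median log2 difference of all genes at -0.73 for SLC minus RS, against -0.14 under the deposited scaling, and at -0.40 for the difference of stage differences, against -0.03. The median over members was then -0.68 for SLC minus RS. Members rising and falling in SLC against RS were then 29 and 99, those falling in PGCLC 18, and those below 0 in the difference of stage differences 45. Quantile normalization gave 58 falling in SLC against RS and 12 falling in PGCLC. A pseudocount of 16 units in place of the floor gave 2 falling in SLC against RS, no filter gave 3 falling in PGCLC, and array weights 12. Fitted on the PGCLC and PGC arrays alone, limma called 3 higher and 0 lower. Without the fold limit, 26 members were higher and 33 lower in PGCLC, 73 lower in SLC against RS and 41 below 0 in the difference of stage differences. Leaving out 1 array gave 9 to 22 members higher and 1 to 16 lower in PGCLC. The higher count was 22 without PGCLC replicate 2 and 9 without PGCLC replicate 3. The lower count was 16 without PGCLC replicate 2, 2 without PGCLC replicate 1, 1 without PGCLC replicate 3, and 3 without PGC replicate 2 or 3. In SLC against RS, leaving out 1 array gave 2 to 6 members lower, the 2 without RS replicate 1. The causes of these moves were not tested. Counts over all genes moved under these settings as well, and nothing particular to the members is read from the counts. With the replicate block, the counts were 16 higher and 5 lower in PGCLC, 54 and 4 in SLC against RS, 51 and 134 in RS, 38 and 116 in SLC against PGCLC, and 44 and 20 for the difference of stage differences. That difference draws on all 4 groups, so no fit on the arrays of 2 groups was made for it. Values near the floor have no order, so falls to the floor are bounds only.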
